A study of Mus musculus with 4 samples.

Results

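This account follows 3 pairs of cytosolic ribosomal protein paralogues in ribosome profiling of mouse hearts: Rpl3 with Rpl3l, Rpl22 with Rpl22l1, and Rps27 with Rps27l. The members were taken by gene symbol, and all 6 were found, each on 1 Ensembl gene, among the 55382 genes of the deposited tables. The hearts were taken on day 15 after birth. The 4 libraries are 2 from control mice, called WT in the titles and NAT10-FF in the design text, and 2 from conditional knockout mice of Nat10, called KO and NAT10-CKO. Nat10 is the RNA cytidine acetyltransferase of the nucleolus, where ribosomes are made. The sources used here do not give the Cre line behind the knockout, the cells it acts in or the exons it removes. Cardiomyocytes are the labelled cell type, although heart tissue was lysed as such. Nothing in the labels says that the replicate numbers stand for different animals, so p-values cover only how far these libraries differ, and that may be technical.

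A ribosome carries 1 copy of most of its proteins, and a few of these are coded by a pair of related genes whose products can take the same place in the particle. Rpl3 codes for a protein of the large subunit that reaches towards the peptidyl transferase centre, and Rpl3l is its paralogue of heart and skeletal muscle, where it takes over from Rpl3 as the muscle matures. Rpl22 codes for an RNA-binding protein of the large subunit, and Rpl22l1 is a paralogue that is known to rise when Rpl22 is lost. Rps27 codes for a zinc-binding protein of the small subunit, and Rps27l is a paralogue known as a target of the stress-responsive transcription factor p53.

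Footprint levels are given in FPKM, fragments per kilobase of gene scaled to the mapped total, as deposited by the authors. The translation efficiency (TE) is the authors' ratio of footprints to RNA. Dividing footprints by TE returned a value that ended within 6 digits in 59296 of 59296 cases (relative tolerance 1e-10), so the quotient was taken as the RNA level behind the ratio and is called the implied RNA level. FPKM keeps no read total, so the depth of each library is unknown. Between 16425 and 16900 genes had footprints per library. The sources used here do not say which hearts the RNA was taken from. Footprints of Nat10 were 1.64-fold lower in KO than in WT and its implied RNA 1.25-fold lower, and neither was past the threshold by limma (adjusted p = 0.295 and 0.424). The median log2 difference of all tested genes, KO minus WT, was 0.36 for footprints, 0.22 for RNA and 0.15 for TE, and changes below can be read against it. A library's scaling cancels in the ratio of a paralogue to its partner.

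The implied RNA of 2 members changed in the KO hearts by limma's test. Rpl3l fell 6.97-fold, and Rps27l rose 4.23-fold. These were 2 of 5 members that could be tested for RNA, where 5.73% of the 12529 tested genes passed, 4.2% higher and 1.53% lower in KO. No member passed for footprints (0 of 6 by limma) or for TE (0 of 5 by limma). For footprints 0.379% of 15031 genes were called, 0.253% higher and 0.126% lower in KO, and for TE 0% of 12529. At limma's unadjusted p under 0.05 there were 5 of 6 members for footprints, beside 2599 of the 15031 genes. For TE there were 0 of 5, beside 759 of the 12529 genes. Rps27 entered the footprint test only through its KO libraries and had no RNA value in WT replicate 1, so it was not tested for RNA or TE.

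**Figure D1:**
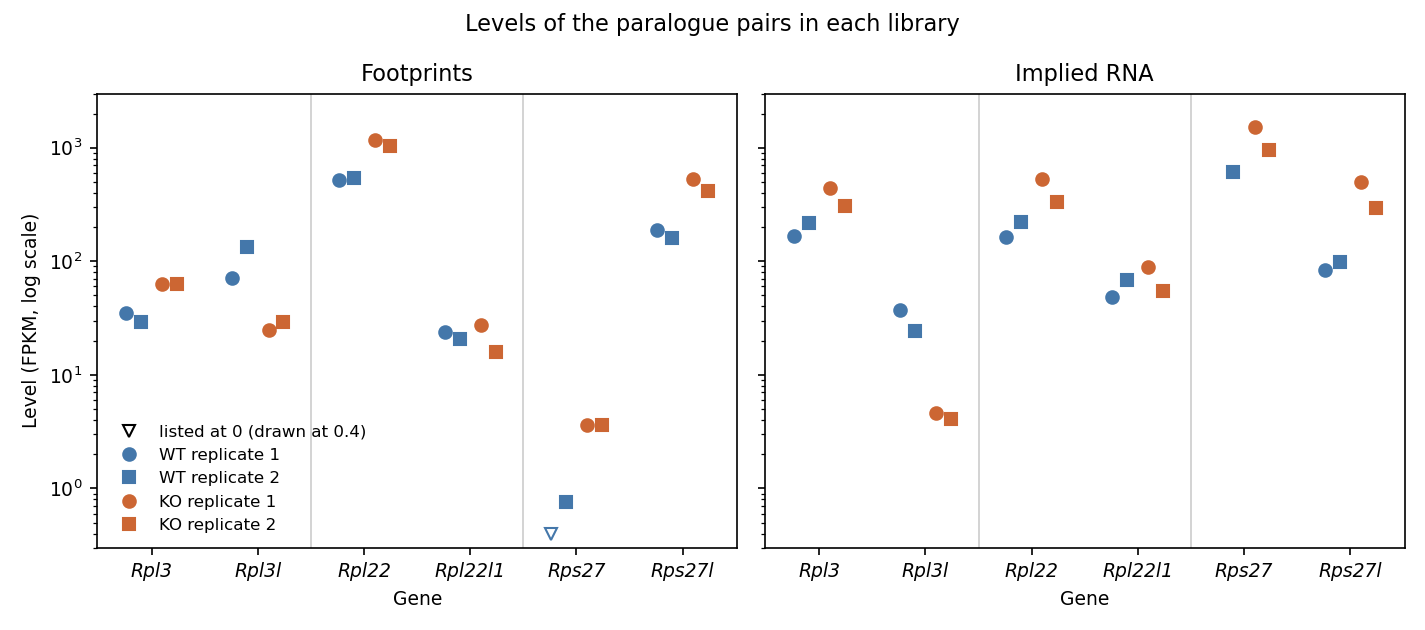
Footprint level (left) and implied RNA level (right) of the 6 members in FPKM on a log scale, with 1 point per library and an open triangle for a gene listed at 0. Rpl3l is the member whose KO points lie below its WT points in both panels, while Rpl3, Rpl22 and Rps27l lie higher in KO in both.

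Rpl3l (ENSMUSG00000002500, chromosome 17 from 24727826 to 24736143 in GRCm38) was the member with the largest RNA change. Its implied RNA stood at 37.5 and 24.3 FPKM in the WT libraries, against 4.61 and 4.07 in the KO libraries. The groups were far apart, with the lower WT library several times above the higher KO library. The mean fell from 30.9 ± 9.3 to 4.34 ± 0.39 (SD, n = 2), a log2 change of -2.80 (SE 0.28, limma adjusted p = 0.014). Footprints of Rpl3l read 70.9 and 133.9 FPKM in WT, against 24.9 and 29.1 in KO. Both KO libraries again lay below both WT libraries, which were themselves well apart. The log2 difference on the log2(FPKM + 1) scale was -1.82 (SE 0.40) and missed limma's threshold (adjusted p = 0.155).

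Rpl3 (ENSMUSG00000060036, chromosome 15 from 80077781 to 80083406) differed the other way. Its footprints were 34.8 and 29.5 FPKM in WT, against 63.2 and 63.1 in KO. Its implied RNA stood at 168 and 218 FPKM in WT, against 446 and 308 in KO. KO lay above WT without overlap in both measures. The log2 difference was 0.96 (SE 0.31, limma adjusted p = 0.233) for footprints and 0.95 (SE 0.27, limma adjusted p = 0.085) for RNA, and neither passed. The log2 RNA difference ran from 0.69 to 1.22 with a library left out. A pseudogene, Rpl3-ps1, was listed beside it at 1.56 and 2.40 FPKM of footprints in WT, against 4.64 and 4.48 in KO, and reads common to both genes cannot be told apart.

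The sequence before the first RefSeq start of Rpl3l is shown because this muscle gene is the member that fell. These are the 250 bases before the start, chr17:24727576-24727825 in GRCm38.p6, plus strand, from RefSeq. Capitals mark each E-box (CANNTG, which reads the same on both strands), the core bound by basic helix-loop-helix factors including the myogenic ones.
Rpl3l start 1: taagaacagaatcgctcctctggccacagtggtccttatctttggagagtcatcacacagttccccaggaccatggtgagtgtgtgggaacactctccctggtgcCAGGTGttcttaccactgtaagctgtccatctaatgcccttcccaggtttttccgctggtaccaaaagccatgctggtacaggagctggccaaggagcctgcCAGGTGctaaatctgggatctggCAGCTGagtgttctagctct
It holds 3 such matches, as do at least that many in 12.2% of the 32851 promoter windows of the same length. RefSeq gives Rpl3l a second start, 24732685, inside the gene, whose window holds a match to the MEF2 site, searched on both strands, that 2.92% of windows share. A match describes letters in a window and not a bound site.

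Within the pair, the balance lay further towards Rpl3 in both KO libraries than in either WT library. Among footprints, Rpl3l was 2.04 and 4.55 times Rpl3 in the WT libraries, against 0.394 and 0.461 times Rpl3 in the KO libraries. Rpl3l thus made up 67.1% and 81.97% of the footprints of the pair in WT, and 28.2% and 31.5% in KO. In the implied RNA it made up 18.2% and 10.04% in WT and 1.02% and 1.303% in KO. Most of the RNA of the pair was assigned to Rpl3 in every library, while most of the footprint level was assigned to Rpl3l in WT only. These shares carry the counting of both genes and are not absolute amounts. Only 1.44% of tested genes had a lower mean TE than Rpl3 in WT, and the part of read counting in this was not tested. The mean log2 ratio of footprints was 1.61 ± 0.82 in WT and -1.23 ± 0.16 in KO (SD, n = 2), a difference of -2.84, or 7.14-fold. The mean log2 ratio of RNA was -2.66 ± 0.71 in WT and -6.42 ± 0.25 in KO, a difference of -3.75, or 13.5-fold. The groups did not overlap in either measure. How often the ratios of other gene pairs separate so was not tested. An exact two-sided permutation test of 2 libraries against 2 cannot go below p = 0.333, which is the value for both ratios (3 pairs and 3 measures gave 9 ratios, of which 6 could be tested, so no adjusted p can be lower).

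**Figure D2:**
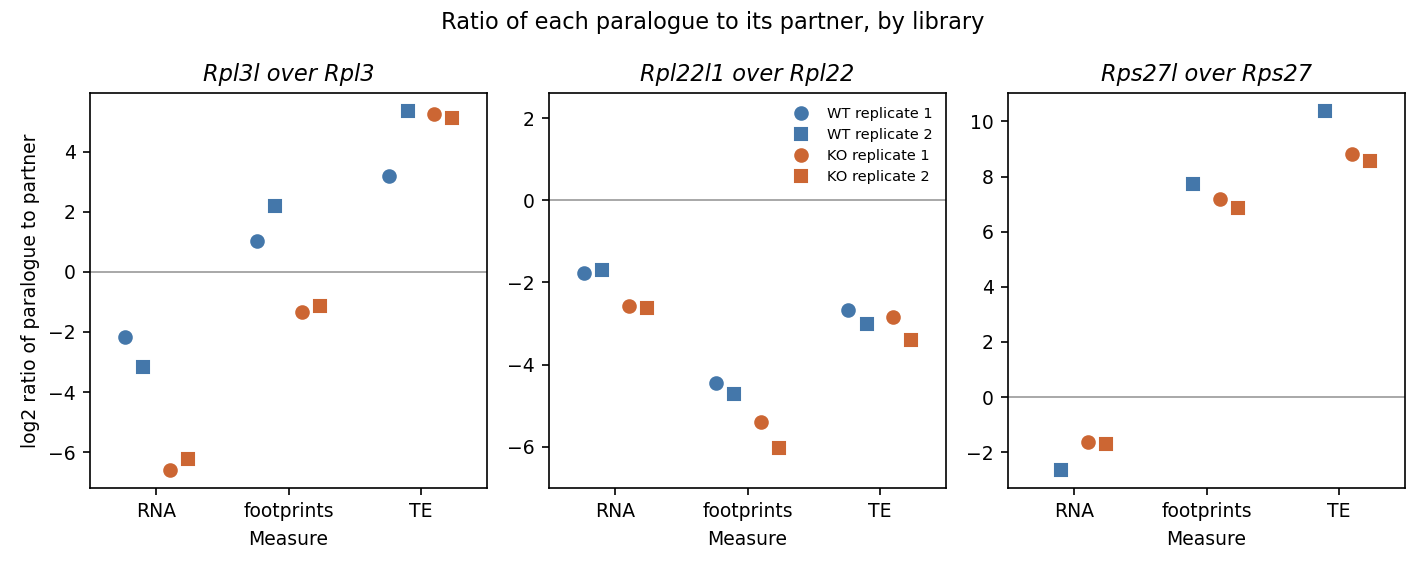
Log2 ratio of each paralogue to its partner in the implied RNA, the footprints and the TE, 1 panel per pair and 1 point per library; WT replicate 1 is missing for the last pair because Rps27 is listed at 0 there. For Rpl3l over Rpl3 the WT libraries lie above 0 in footprints and the KO libraries below 0, and for Rpl22l1 over Rpl22 the KO libraries lie below the WT libraries in RNA and footprints. Where a ratio lies relative to 0 depends on how reads of both genes were counted.

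Rps27l (ENSMUSG00000036781, chromosome 9 from 66944624 to 66949522) was the member that rose. Its implied RNA stood at 83.1 and 98.6 FPKM in WT, against 497 and 295 in KO. The KO libraries differed from each other, yet the lower of them lay well above the higher WT library. The mean went from 90.8 ± 10.9 to 396 ± 143 FPKM (SD, n = 2), a log2 change of 2.08 (SE 0.30, limma adjusted p = 0.026). The call was lost without a mean-variance trend in limma (adjusted p = 0.055) and was kept under the other 8 alternatives. Footprints of Rps27l read 190.02 and 159 FPKM in WT, against 529 and 420 in KO, without overlap. Their log2 difference of 1.43 (SE 0.24) did not pass over all genes (limma adjusted p = 0.114) and passed when only named protein-coding genes were tested (limma adjusted p = 0.028).

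Rps27 (ENSMUSG00000090733, chromosome 3 from 90212667 to 90213648) was barely seen in footprints although its RNA was abundant. It was listed at 0 and 0.755 FPKM of footprints in WT and at 3.63 and 3.61 in KO. Its implied RNA stood at 616 FPKM in WT replicate 2, and 1535 and 961 in KO, the highest of the 6 members in each of these libraries. The resulting TE of 0.0012, 0.0024 and 0.0038 lay far below that of any other member. Reads that map to near-identical genes may have been dropped or split by the authors' counting, and mouse has a close copy, Rps27rt, and a pseudogene, Rps27-ps1, both listed at 0 footprints in all 4 libraries. The footprint level of Rps27 is therefore uncertain.

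The RNA balance of this pair lay further towards Rps27l in both KO libraries than in the WT library that could be read. In the implied RNA, Rps27l made up 13.8% of the pair in WT replicate 2, and 24.5% and 23.5% in the KO libraries. The log2 ratio was -2.64 in that WT library and -1.67 ± 0.05 (SD, n = 2) in KO, a difference of 0.98 with 1 WT library and no test. In footprints the ratio of 211 in WT replicate 2 and of 146 and 116 in KO rests on the few footprints assigned to Rps27, and no direction is read from it.

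A stretch of Rps27l is shown because this gene is a known p53 target and was the member that rose. It lies at chr9:66946198-66946322 in GRCm38.p6, plus strand, between the starts of the RefSeq promoter set used, 66946086 (called first here) and 66946413 (second). The gene as placed above begins further upstream, at 66944624, and the set held no window for that position. Capitals mark matches to the decamer of the p53 response element, which reads the same on both strands.
Rps27l before start 2: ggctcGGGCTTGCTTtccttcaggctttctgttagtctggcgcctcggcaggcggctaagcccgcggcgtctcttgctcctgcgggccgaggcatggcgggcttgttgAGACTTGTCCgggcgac
The 250 bases before that start hold 2 such matches, as do at least that many, at any spacing, in 0.259% of the 32851 windows. The matches begin 210 and 107 bases before that start, so they do not lie side by side. The 250 bases before the first start of that set hold no such letters. Several motifs were searched before all 8 starts and not all matches are printed. This share and those given for Rpl3l are therefore not those of a single search. Binding of p53 was not measured.

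Other p53 targets were read beside Rps27l, from a list of 28 genes that does not hold it. In the implied RNA, 16 of 26 tested targets rose and 1 fell, beside the 5.73% of all genes that passed, and the median log2 difference was 1.57 against 0.22 for all genes. Among the 16, Dcxr, a carbonyl reductase, entered the tests only through its KO libraries. Without the mean-variance trend 6 rose, beside 50 of 12529 genes. With a library left out, the median log2 RNA difference of the targets ran from 1.40 to 1.70. The fall was lost without either WT library and without the trend. Cdkn1a, the cell cycle inhibitor p21, read 17.9 and 23.5 FPKM of RNA in WT, against 506 and 342 in KO (limma adjusted p = 0.012). Mdm2, the ubiquitin ligase that restrains p53, read 22.5 and 21.04 in WT, against 63.5 and 53.1 in KO (limma adjusted p = 0.027). Sesn1, a stress-induced regulator of mTOR signalling, fell, from 34.1 and 40.01 to 15.6 and 18.8 FPKM (limma adjusted p = 0.044). In footprints 3 of 28 targets rose, Gdf15, Cdkn1a and Eda2r (limma adjusted p = 0.014, 0.022 and 0.022), and 0 fell, beside 0.379% of all genes. None of the 3 passed when any of the 4 libraries was left out. With named protein-coding genes only 11 rose in footprints, beside 177 of 12788 genes. With every gene above 0 in any library 0 rose, beside 7 of 20581 genes. The log2 RNA difference of Rps27l was 2.08, and the 23 targets with at least 1 FPKM of footprints in all libraries ranged from -1.11 to 6.80. The other ribosomal protein genes with that floor, at 0.80 to 1.89, also lay within this wide range. That Rps27l lay within it therefore says little.

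Rpl22 (ENSMUSG00000028936, chromosome 4 from 152324436 to 152334082) had the highest footprint level of the members. Its footprints were 519 and 544 FPKM in WT, against 1167 and 1044 in KO, and its implied RNA stood at 165 and 222 in WT, against 534 and 335 in KO. The KO libraries lay above the WT libraries in both measures. The log2 difference of 1.05 (SE 0.21) in footprints did not pass over all genes (limma adjusted p = 0.139) and passed when only named protein-coding genes were tested (limma adjusted p = 0.043). The RNA difference of 1.15 (SE 0.30) did not pass (limma adjusted p = 0.073) and ran from 0.81 to 1.48 with a library left out.

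Rpl22l1 (ENSMUSG00000039221, chromosome 3 from 28805508 to 28807424) showed no separation between the groups. Its footprints were 23.8 and 20.7 FPKM in WT, against 27.6 and 15.9 in KO, and its implied RNA stood at 48.4 and 68.2 in WT, against 89.9 and 54.4 in KO. The log2 difference was -0.08 (SE 0.43, limma adjusted p = 0.940) for footprints and 0.28 (SE 0.31, limma adjusted p = 0.572) for RNA. The sign of both differences turned when 1 library was left out.

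In RNA the ratio of this pair was tighter between replicates than the levels of its members. Rpl22l1 was 0.294 and 0.308 times Rpl22 in the RNA of the WT libraries and 0.168 and 0.162 times Rpl22 in the KO libraries. The mean log2 ratio of RNA was -1.73 ± 0.05 in WT and -2.60 ± 0.04 in KO (SD, n = 2), a difference of -0.86, or 1.82-fold, which is many times the spread of either group. In footprints the ratio was 0.0458 and 0.0381 in WT, against 0.0236 and 0.0153 in KO, a log2 difference of -1.14, or 2.199-fold. Neither measure overlapped between groups (exact permutation p = 0.333 for both, the smallest the design allows). The log2 RNA difference of Rpl22l1, 0.28, lay near the median of all genes, 0.22. That of Rpl22, 1.15, lay near the median of the other cytosolic ribosomal protein genes, 1.31. The shift of this ratio is therefore not shown to be particular to the pair, and how often other ratios separate so was not tested.

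Across members, non-overlap between groups was found in 5 of 6 for footprints, where 51.7% of tested genes had it. For 4 of them KO was above WT (39.5% of genes) and for 1 below (12.1%). Of those above, Rps27 entered the test only through its KO libraries, so the filter fixed its separation. In RNA it was found in 4 of 5, where 62.8% of genes had it, with 3 above (44.2%) and 1 below (18.6%). In TE only Rps27l had it, with 2.29 and 1.61 in WT, against 1.06 and 1.42 in KO, beside 35.9% of tested genes, 24% with KO above and 12% with KO below. These shares are high for all genes, so the separation of a member by itself says little.

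The other genes of the cytosolic ribosome were used as a reference for the members, and the amount or make-up of ribosomes was not measured. Of 77 other cytosolic ribosomal protein genes, 55 were tested for RNA, 14 rose by limma's test while 0 fell, and the KO libraries lay above the WT libraries for all 55. Over all genes tested for RNA, 4.2% were called higher, 1.53% were called lower and 44.2% had KO above WT. Their median log2 RNA difference was 1.31, against 0.22 for all genes. The count of 14 depended on single libraries, on scaling and on the variance model. It was 9 with median-ratio scaling, beside 327 of 12529 genes called higher, and 0 without a mean-variance trend, beside 50. With a library left out, the median log2 RNA difference of the 55 ran from 0.93 (without KO replicate 1) to 1.67 (without KO replicate 2). For footprints 63 were tested, of which 2 passed the filter only through KO. None of the 63 changed by limma's test (38 had an unadjusted p under 0.05), and 10 rose when only named protein-coding genes were tested. The highest RNA differences of the list were those of Rpl38, Rps28 and Rps18 (log2 changes 1.89, 1.75 and 1.68, limma adjusted p = 0.039, 0.039 and 0.046), and the highest footprint differences those of Rpl10a, Rpl39 and Rps19 (log2 differences 2.53, 2.48 and 2.19, limma adjusted p = 0.185, 0.164 and 0.088). The lowest footprint differences were those of Rpl36a, Rpl38 and Rpl5 (log2 differences -1.04, -0.76 and -0.73, limma adjusted p = 0.396, 0.483 and 0.696). Of these 6, Rpl10a and Rpl5 were each listed at 0 in 1 library.

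The median RNA level of these 55 genes was 220.2 and 287 FPKM in WT, against 852 and 494 in KO, so the KO libraries differed much between themselves. Divided by the median of its own library, a quantity chosen after the values were seen, replicates lay close together for every member but Rpl3l. Rps27l stood at 0.378 and 0.343 of the median gene in WT and at 0.583 and 0.596 in KO, which is 1.64-fold higher. Rpl22l1 stood at 0.220 and 0.237 in WT and at 0.105 and 0.11 in KO, 2.12-fold lower. Rpl3l stood at 0.170 and 0.0845 in WT and at 0.0054 and 0.0082 in KO, 18.7-fold lower. Rpl3 and Rpl22, whose levels were higher in KO, were lower by this measure, at 0.764 and 0.757 against 0.523 and 0.623 for Rpl3 and at 0.748 and 0.771 against 0.627 and 0.677 for Rpl22. No group overlapped with the other for these 5 members (exact permutation p = 0.333 for each, the smallest the design allows). Rpl36al, Rpl7l1 and Rps4l, paralogues of Rpl36a, Rpl7 and Rps4x, were also lower in KO by this measure without overlap. They were 1.296-fold, 1.416-fold and 2.202-fold lower, so such separation was not particular to the members. How often other genes separate by this measure was not tested. Rps27 stood at 2.14 times the median gene in WT replicate 2, and at 1.80 and 1.94 times in KO. In footprints the same quantity overlapped between groups for Rps27l, Rpl3 and Rpl22, with 11.3 and 8.78 in WT, against 16.4 and 10.3 in KO for Rps27l. It was 7.84-fold lower in KO for Rpl3l and 2.06-fold lower for Rpl22l1, without overlap (exact permutation p = 0.333 for both).

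**Figure D3:**
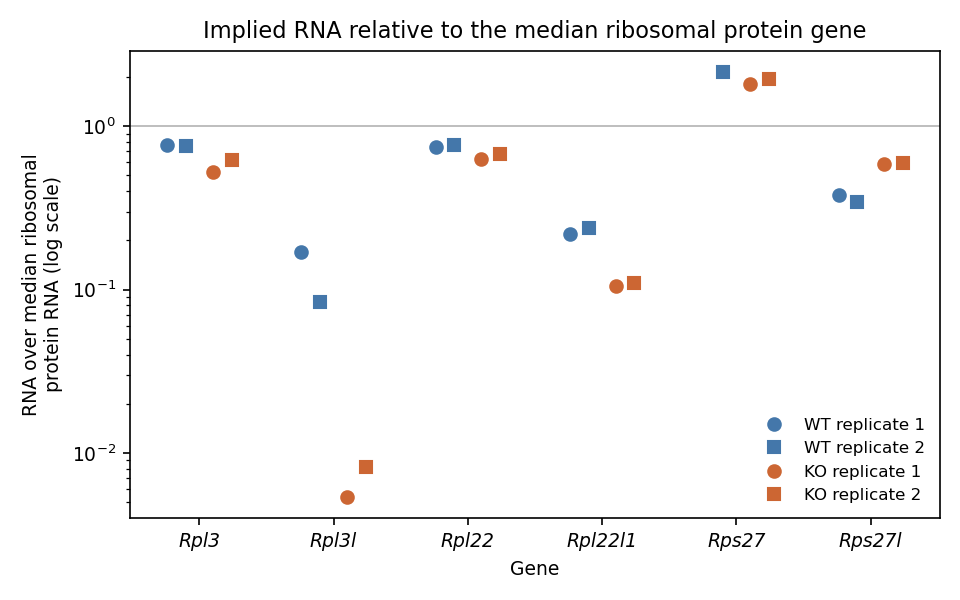
Implied RNA level of each member divided by the median of the other cytosolic ribosomal protein genes in the same library, on a log scale, with 1 point per library and a line at the level of the median gene. Only Rps27l has both KO points above both WT points, and Rpl3l has the widest gap, at 18.7-fold lower in KO.

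The members were set against the 51 other ribosomal protein genes with at least 1 FPKM of footprints in all 4 libraries. In RNA the members stood at both ends. The RNA difference of Rps27l was higher than that of all 51, and those of Rpl3l and Rpl22l1 were lower than that of all 51. Rpl22 had 16 of the 51 below it and Rpl3 had 5. In footprints only Rpl3l lay beyond all 51, on the low side. There Rps27l had 9 of the 51 above it and Rps27 had 3, while Rpl22l1, Rpl3 and Rpl22 had 3, 17 and 21 below them. These positions are descriptions with no test.

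Other paralogues of ribosomal proteins gave a mixed picture. Rps4l, a paralogue of Rps4x, had footprints of 91.004 and 91.3 FPKM in WT, against 65.3 and 35.3 in KO (log2 difference -0.91, limma adjusted p = 0.290), with RNA of 37.2 and 45.2 in WT, against 54.7 and 41.5 in KO (limma adjusted p = 0.569). Its RNA difference of 0.22 was also lower than that of all 51 genes. Rpl7l1 and Rpl36al, paralogues of Rpl7 and Rpl36a, had RNA differences of 0.86 and 1.00 (limma adjusted p = 0.071 and 0.115). Rpl10l, a paralogue of the testis, was listed at 0 footprints in all 4 libraries, and Rpl39l in all but KO replicate 2, at 1.58 FPKM.

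**Figure D4:**
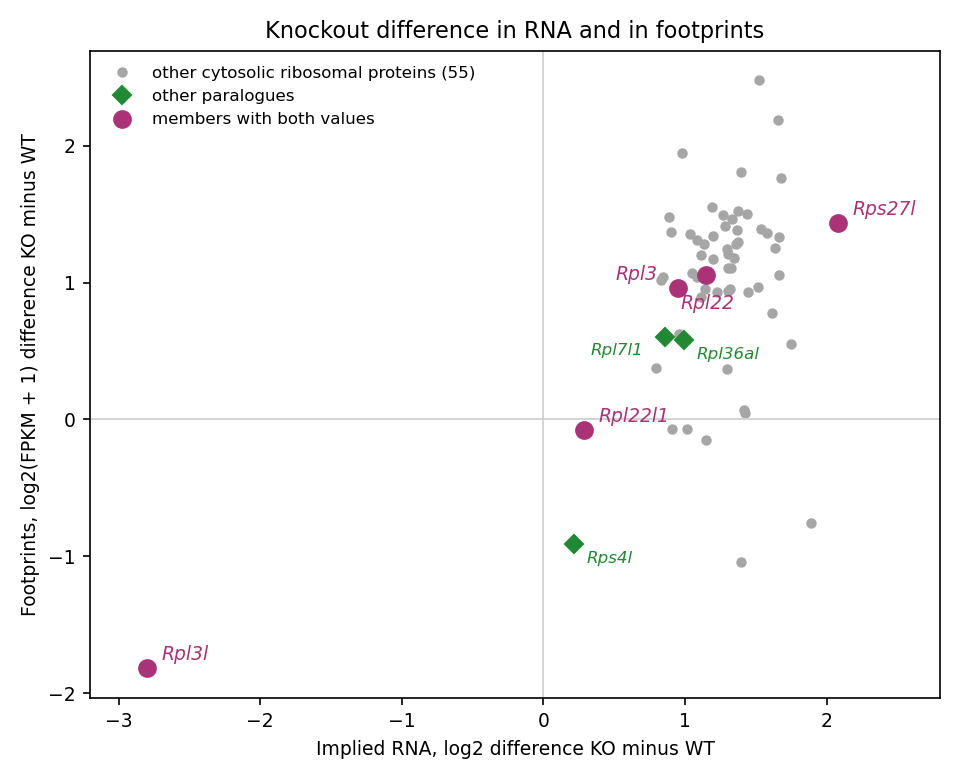
Log2 difference KO minus WT in implied RNA (horizontal) and in footprints (vertical) for 55 other cytosolic ribosomal protein genes, 3 other paralogues and the 5 members with both values, 1 point per gene. Rpl3l lies apart at -2.80 in RNA and -1.82 in footprints, Rps27l lies farthest to the right at 2.08, and Rpl22l1 and Rps4l lie left of all other ribosomal protein genes.

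Footprints and RNA gave different orders of the same genes. In WT replicate 1 the RNA level of the 55 tested ribosomal protein genes spanned 13.6-fold, from 54.4 FPKM (Rps20) to 740.1 (Rplp1), while their TE spanned from 0.0025 (Rpl10) to 7.97 (Rack1, a ribosomal scaffold protein with a WD-repeat fold). Of the 77 genes, 4 were listed at 0 footprints in all libraries and 22 in at least 1. How reads shared by near-identical genes were counted is not known from the sources used here, and its part in this spread was not tested. Rpl3 lay above the median of these genes, with a TE of 0.207 and 0.135 in WT, against 0.142 and 0.205 in KO, while only 1.44% of all tested genes had a lower mean TE in WT. Rpl3l had a TE of 1.89 and 5.51 in WT, against 5.39 and 7.15 in KO, which overlapped (log2 difference 0.94, SE 0.62, limma adjusted p = 0.865). Rpl22 had a TE of 3.15 and 2.46 in WT, against 2.18 and 3.12 in KO, and Rpl22l1 one of 0.491 and 0.304 in WT, against 0.307 and 0.293 in KO. Levels of a member in footprints and in RNA therefore cannot be set against each other as absolute amounts, and ratios within a pair carry the counting of both partners.

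**Figure D5:**
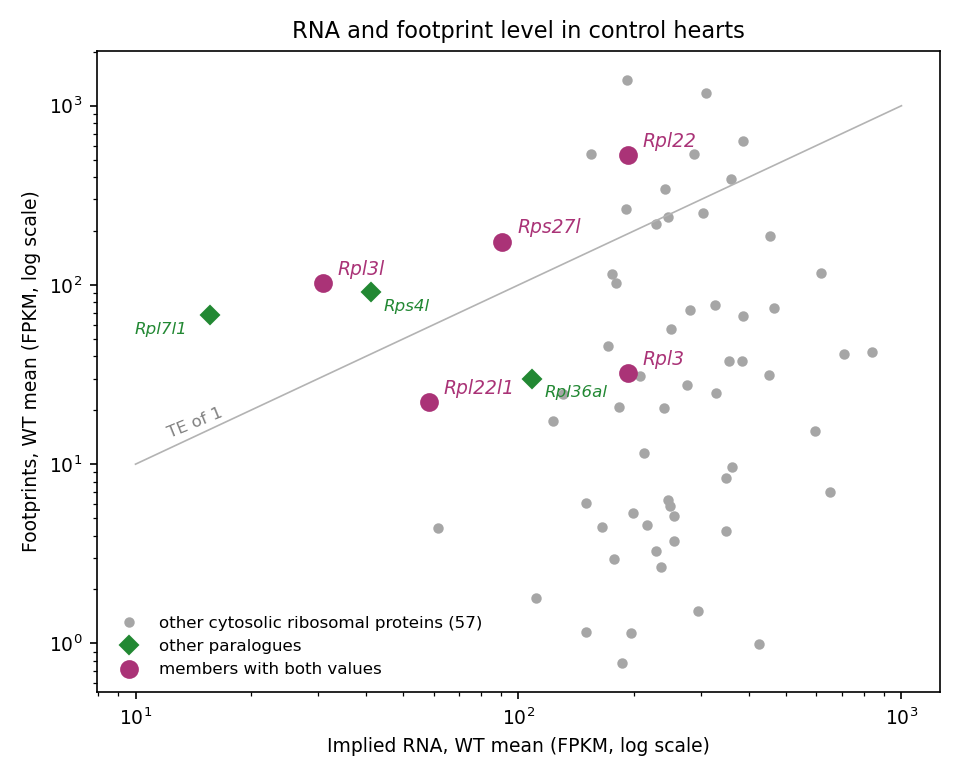
Mean implied RNA level (horizontal) against mean footprint level (vertical) of the 2 WT libraries in FPKM, both on log scales, for 57 other cytosolic ribosomal protein genes, 3 other paralogues and 5 members, with a line where TE is 1. Rpl22, Rps27l and Rpl3l lie above the line, and Rpl3 and Rpl22l1 lie below it among the other ribosomal protein genes.

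The first transcribed bases of the members are shown because mRNAs of ribosomal proteins are known for a terminal oligopyrimidine tract, a run of C and T at the very start through which growth signals set their translation. Each line gives 10 bases before and 20 from a RefSeq start in GRCm38.p6, on the strand of the gene, with the longest run of C or T in the transcribed part in capitals. Of the 6 members 5 had an entry, with 8 starts.
Rpl3l start 1: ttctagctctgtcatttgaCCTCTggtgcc
Rpl3l start 2: caacagctacagtgCCCCaaatgtcctgaa
Rpl22 start 1: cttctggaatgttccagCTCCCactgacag
Rpl22 start 2: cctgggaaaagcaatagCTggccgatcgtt
Rpl22l1: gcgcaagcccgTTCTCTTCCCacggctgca
Rps27: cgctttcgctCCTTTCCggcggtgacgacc
Rps27l start 1: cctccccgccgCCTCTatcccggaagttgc
Rps27l start 2: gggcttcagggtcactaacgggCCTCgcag
Rps27 begins with a run of 7 at its first base, and Rpl22l1 has a run of 10 from its second base. A run of at least 7 in these 20 bases is found in 11.1% of all 32851 windows and one of at least 10 in 2.64%. The starts listed first here for Rpl3l, Rpl22 and Rps27l each have a run of 5, as 32.8% of windows have at least. The one of Rps27l lies inside the gene and not at its listed beginning. RefSeq starts need not be those used in the heart.

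Markers of cell types were read beside Rpl3l, which belongs to muscle cells. All 12 cardiomyocyte markers were present, among them the ventricular myosin light chain Myl2 and the troponin Tnnt2. Their summed footprints were 325337 and 375637 FPKM in WT, against 207660 and 223491 in KO, and their summed RNA 38370 and 42343 in WT, against 31206 and 25498 in KO. No marker changed by limma's test in either measure, while 10 of 12 lay below WT without overlap in footprints and 8 of 12 in RNA, beside 12.1% and 18.6% of all genes. In RNA 2 markers fell with median-ratio scaling, 1 with the replicate block and 1 with a floor of 5 FPKM. Over all genes 309, 401 and 178 were called lower under these settings. Some markers also fell in fits with a library left out, which leave a single library in a group and are not counted here. With a library left out, the median log2 RNA difference of the markers ran from -0.61 to -0.43. Per 1000 FPKM of that summed RNA, Rpl3l stood at 0.977 and 0.574 FPKM in WT and at 0.148 and 0.159 in KO, 5.05-fold lower in KO, so the difference in Rpl3l RNA was larger than that in the marker sum. Fewer muscle cells and less RNA per muscle cell cannot be told apart in whole tissue.

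Markers of other cell types differed too, and their part in the paralogue differences was not tested. Summed footprints of 10 fibroblast markers were 25943 and 21680 FPKM in WT, against 54693 and 70990 in KO, and their summed RNA was 1180 and 1581 in WT, against 2782 and 2088 in KO. The RNA of Tcf21 and Postn rose in that list (2 of 10, beside 4.2% of all genes called higher). The count was 0 without a mean-variance trend, beside 50 of 12529 genes called higher. With a library left out, the median log2 RNA difference of the 10 ran from 0.24 to 0.81. No fibroblast marker passed in footprints, where 9 of 10 had an unadjusted p under 0.05 by limma, beside 2599 of 15031 genes. When only named protein-coding genes were tested 6 rose, beside 177 of 12788 genes. The RNA of C1qa and Lyz2 rose among 10 macrophage markers, whose RNA sum was 128 and 122 in WT, against 293 and 231 in KO. That count was 0 without the trend, 1 with median-ratio scaling and 5 with the replicate block, beside 50, 327 and 1028 genes called higher. With a library left out, the median log2 RNA difference of these 10 ran from 0.78 to 1.00. Of the 10 endothelial markers 0 passed limma's test, with RNA sums of 638 and 701 in WT, against 729 and 734 in KO. Their median log2 RNA difference ran from -0.11 to 0.12 with a library left out. Of 9 smooth muscle and pericyte markers Tagln rose in both measures, a call lost in footprints with any library left out, and the RNA sum was 699.6 and 691 in WT, against 649.7 and 571 in KO. Of 8 erythroid markers 0 passed limma's test, with RNA sums of 635 and 959 in WT, against 1328 and 656 in KO. Their median log2 RNA difference ran from 1.9e-05 without KO replicate 1 to 1.06 without KO replicate 2. Skeletal muscle markers, whose tissue also uses Rpl3l, were near the floor, with summed footprints of 9.61 to 17.6 FPKM per library, and Myod1 and Myf6 were listed at 0 in all 4.

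The footprint pattern of each member over the 4 libraries was compared with that of 9236 other coding genes with a mean of at least 10 FPKM over the 4 libraries (9237 for Rps27), by the distance between gene-centred log2 values. The genes nearest to Rpl3l were Slc48a1, a haem transporter, Chpt1, a choline phosphotransferase, and Agpat3, an acyltransferase, at distances of 0.15, 0.36 and 0.41. Those nearest to Rps27l were Sh3bgrl3, Acsm1 and H4c4, a histone, at 0.10, 0.11 and 0.11. Those nearest to Rpl3 were Vps37c, Cyb5a and Anxa3 at 0.04, 0.04 and 0.05. Rpl22 was nearest to Pcnx3, C1qtnf2 and Sertad4 at 0.03, 0.05 and 0.06, and Rpl22l1 to Naaa, Doc2g and Dbp, a circadian transcription factor, at 0.07, 0.07 and 0.11. Rps27 was nearest to Pqlc3, Tgfb2, a transforming growth factor, and Wfdc17, at 0.15, 0.27 and 0.27. With 4 libraries such likeness rests on few values and carries no test.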

How the data were processed

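Ribosome-protected fragments were sequenced from about 100 mg of heart per library, held with cycloheximide at 100 µg/mL. Per the submitters' processing notes, STAR 2.7.4a, Cufflinks 2.2.1, cutadapt 3.7, Bowtie 1.3.1 and HTSeq 0.13.5 served with GRCm38 (mm10), in an order and with settings not given in the sources used here. The authors deposited footprint levels in FPKM and the TE, a ratio, 1 column per library. A TE of 0 was taken as missing, and FPKM divided by TE gave the implied RNA level.

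Genes with at least 1 FPKM in at least 2 libraries were tested as log2(FPKM + 1) with limma 3.58.1 in R 4.3.3 (lmFit, eBayes with a mean-variance trend, two-sided, no covariates), and log2 RNA and log2 TE where TE was above 0 in all 4 libraries. P-values were adjusted over all tested genes (Benjamini-Hochberg, 0.05). Fold changes of footprints are on the log2(FPKM + 1) scale, which understates low genes. Paralogue ratios used exact permutation. Sequences are RefSeq's (GRCm38.p6). The fit was tested on simulated data. Alternatives changed the filter, pseudocount, gene classes, scaling, variance trend, replicate block and libraries. Named were the members, the highest and lowest 3 of the list of other ribosomal proteins in footprints, other paralogues, p53 targets past the threshold in footprints, marker lists, and the 3 nearest genes per member by footprint pattern; Mdm2, Sesn1 and genes named for RNA only were chosen after their values were seen. The members and lists were chosen with earlier results of these data known.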

Additional observations from a re-analysis of the deposited data

How the results depend on the processing

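The RNA fall of Rpl3l passed under all 9 alternatives tried for it (adjusted p 1.3e-09 to 0.048), and its footprint difference kept its direction and passed under none of 12 (adjusted p 0.054 to 0.666). For Rps27l RNA the adjusted p ran from 0.0012 to 0.055. TE of Rpl3 turned sign with median-ratio scaling (log2 -0.12), and differences that turned sign with a library left out ranged from -0.28 to 0.33 for TE of Rpl3, from -0.35 to 0.16 for TE of Rpl22, from -0.45 to 0.30 for footprints of Rpl22l1 and from -0.0786 to 0.65 for its RNA; the cause was not tested.

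With a library left out, the log2 difference of the ratio of Rpl3l to Rpl3 was -3.42 to -2.26 in footprints, -4.25 to -3.26 in RNA and -0.16 to 2.00 in TE. That of Rpl22l1 to Rpl22 was -1.45 to -0.82, -0.90 to -0.83 and -0.56 to 0.0162. That of Rps27l to Rps27 in footprints was -0.69, and -0.37 with 1 FPKM added to both; without WT replicate 2 it could not be computed, and the replicate block was not run there. Adding pseudogenes could alter only the ratio of Rpl3l to Rpl3, because Rpl3-ps1 alone had footprints. Its log2 difference was then -2.85 in footprints and -3.75 in RNA, within the spread between replicates. The copies of Rpl22 and Rps27 were listed at 0 in all 4 libraries, so the other ratios could not move.

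RNA and TE of Rps27 were not fitted, since a TE above 0 in all 4 libraries was required, and its footprints fell outside the filter of 10 FPKM. Over all genes, 57 passed for footprints (38 higher in KO, 19 lower), 718 for RNA (526, 192) and 0 for TE (759 at an unadjusted p under 0.05). Median-ratio scaling gave 40 and 30 for footprints and 327 and 309 for RNA. For footprints 8 passed without the filter, 34 with a pseudocount of 0.1, 230 among named protein-coding genes, 36 without the trend and 0 with any library left out. For RNA 67 passed without the trend and 704 to 3742 with a library left out. For TE 1 passed with a floor of 5 FPKM, 1 among named protein-coding genes, 1 without the trend and 0 to 33 with a library left out. The replicate block gave 143, 1429 and 178 calls for footprints, RNA and TE; deviations of same-numbered libraries correlated at 0.019, -0.228 and -0.007, and the labels state no pairing. The block changed no call of a member. Depth is unknown, so the precision of low levels cannot be given.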
